A study of Mus musculus with 2 samples.

Results

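The endothelin system was examined in cardiac neural crest cells of the mouse embryo. The genes were taken from a list of 7, namely the ligands Edn1, Edn2 and Edn3, the receptors Ednra and Ednrb, and the converting enzymes Ece1 and Ece2. Of these, 6 were measured among 19938 genes in all, and Ednra was not analysed here, so Ednra could not be set against Ednrb. A gene was represented by its brightest transcript cluster, the set of probes that the array assigns to one transcript, among clusters annotated to that symbol alone.

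The 2 groups were Adam19+/+; Wnt1-Cre; R26tdTomato/+ cells and Adam19-/-; Wnt1-Cre; R26tdTomato/+ cells, each on 1 Affymetrix array (n = 1). Both were from embryonic hearts at stage E14.5 on a C57BL/6 background. All cells carried a tdTomato reporter turned on by Wnt1-Cre, which acts in the neural crest, and were sorted on its fluorescence. The sort therefore takes every crest descendant in the heart, including smooth muscle, mesenchyme, neurons and glia. The Adam19 genotype is written as a plain null, with no floxed allele. The sources used here do not give the number of embryos in a sample.

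Endothelins are short peptides that constrict vessels in the adult and direct neural crest cells in the embryo. Each is made as a long precursor, trimmed by furin-type convertases to big endothelin and cut by an endothelin converting enzyme to the active form. Edn1 acts through Ednra on crest cells of the pharyngeal arches and outflow tract, while Edn3 acts through Ednrb on precursors of melanocytes and enteric neurons. Both receptors couple to G proteins of the Gq family, which activate phospholipase C beta.

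The sequences at the start of 2 of these genes are shown because Edn1 had the largest difference between the arrays and Ednrb encodes the receptor that was measured. They are from RefSeq on GRCm38.p6, where all 6 measured genes have a window, and are written 5′ to 3′ along the gene's strand, with matches to the motifs searched in capitals. The longer ones are the 250 bases before the annotated start, and the short one lies 7 to 34 bases into the Edn1 transcript.
Edn1 before the start, chr13:42301226-42301475, plus strand: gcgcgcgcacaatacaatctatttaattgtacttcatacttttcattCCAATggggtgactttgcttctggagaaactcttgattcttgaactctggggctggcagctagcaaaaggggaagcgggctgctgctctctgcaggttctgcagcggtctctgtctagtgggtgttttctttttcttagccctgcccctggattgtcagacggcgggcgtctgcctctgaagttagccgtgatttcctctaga
Edn1 after the start, chr13:42301482-42301509, plus strand: tcTTATCTctggctgCACGTtgcctgtg
Ednrb before the start, chr14:103843702-103843951, minus strand: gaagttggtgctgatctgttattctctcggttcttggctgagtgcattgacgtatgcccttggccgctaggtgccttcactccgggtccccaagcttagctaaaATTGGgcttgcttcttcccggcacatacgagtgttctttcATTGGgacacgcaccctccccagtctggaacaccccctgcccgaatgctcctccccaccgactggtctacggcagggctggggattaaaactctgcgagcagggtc

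The 6 motifs were searched on both strands. A CCAAT box was read as CCAAT, the binding site of GATA factors as AGATAA and the core of a hypoxia-response element as ACGTG. An AP-1 site was read as TGACTCA, the letters of a Fos and Jun dimer. A TATA box was read as TATAAA, the site that helps place the start of transcription. An E-box was read as CACGTG, which itself contains the hypoxia-response core. Before their starts, Edn1 held 1 CCAAT box and Ednrb held 2, and 33.8% of the 32851 RefSeq windows of that length hold at least 1. No other motif of the 6 was matched there in either gene. Just after its start Edn1 had both a GATA match, beginning 9 bases in, and a hypoxia-response core, beginning 22 bases in, each read on the minus strand. Over the full windows of 300 bases, 11.2% hold the GATA letters and 19.6% the hypoxia core. The windows of Edn2 and Edn3 matched none of the 6 motifs. The hypoxia core was also matched before the start of Ece2 and in 1 of the 4 windows of Ece1, there within an E-box, and both genes matched the CCAAT box. A match is a run of letters and shows no binding.

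Levels are given as log2 signal, first on the Adam19+/+ and then on the Adam19-/- array, and differences as the second minus the first. A floor was set at the median signal of all genes, 8.01, which is a middle level and not a limit of detection. Signals of different clusters depend on their probes, so the levels of different genes were not ranked against each other. For the same reason the summed linear signal of a list rests mainly on its brightest clusters and does not measure an amount of cells. Each genotype has a single array, so there is neither a replicate nor a test. Single differences were read against those of all genes, whose median was 0.01 and whose central 95% ran from -0.25 to 0.33. Of all genes 51.7% were higher and 34.1% lower, and of genes above the floor on at least 1 array 65.2% were higher, with a median of 0.04. Counts of higher and lower genes below are to be set beside these shares. They were also read against the 500 genes nearest in signal. In sorted bulk cells, fewer cells of a type and less RNA per cell cannot be told apart.

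Edn1, the ligand of cardiac and craniofacial crest development, was the endothelin gene with the largest difference. Its log2 signal went from 8.39 on the Adam19+/+ array to 8.72 on the other, or 335 and 423 on the linear scale. It was thus 0.34 higher on the log2 scale, or 1.26-fold, and above the floor on both arrays. Of all genes, 2.32% were higher by as much or more, as were 4.2% of the 500 genes nearest in signal. The central 95% of those neighbours ran from -0.24 to 0.38, so Edn1 lay inside their range.

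Edn2, which encodes a ligand close to endothelin 1, was under the floor on both arrays. It was at 5.70 and 5.92, a difference of 0.22, and 7.4% of the genes nearest in signal were higher by as much. Adding 32 to the linear signals of 51.9 and 60.6 brought the difference to 0.14.

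Edn3, the ligand of melanocyte and enteric crest precursors, lay at the floor. It was at 8.05 on the Adam19+/+ and 8.06 on the Adam19-/- array, a difference of 0.01, which turned to -0.02, -0.04 and -0.03 under quantile normalisation, median centring and lowess centring. The ligands thus ran from near equality for Edn3 to 1.26-fold for Edn1.

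**Figure D1:**
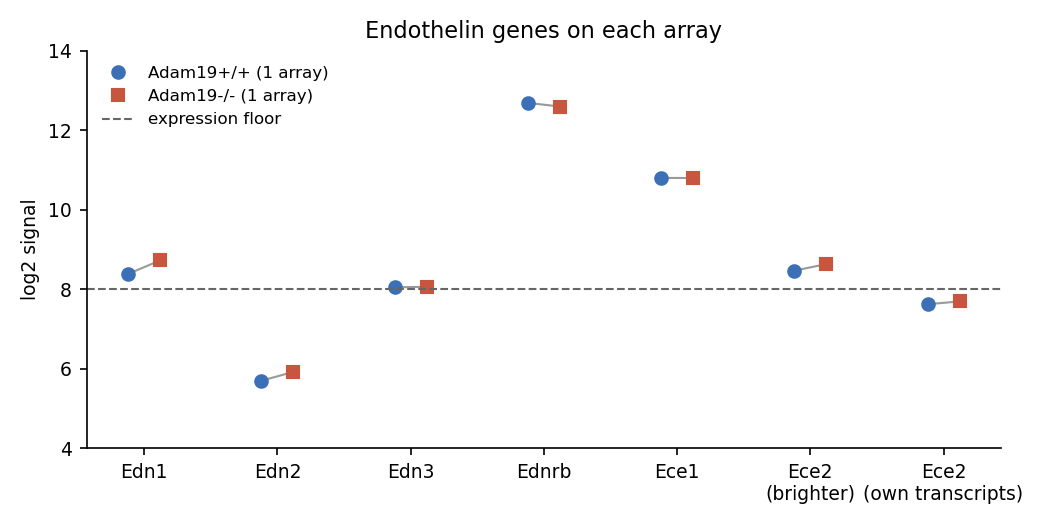
Log2 signal of each measured endothelin gene on the Adam19+/+ array (circles) and the Adam19-/- array (squares), 1 array each, with both clusters of Ece2; the dashed line is the floor of 8.01. Edn1 has the widest step between arrays, from 8.39 to 8.72, while the 2 points of Ece1 lie level.

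Ednrb, the receptor that binds all endothelins, had strong signal in both samples. Its log2 signal was 12.69 for Adam19+/+ and 12.60 for Adam19-/- cells, well above the floor on both arrays. The difference was -0.09, or 1.07-fold lower, and 9% of the genes nearest in signal were lower by as much. Its direction was the same under quantile normalisation, median centring and lowess centring, from -0.14 to -0.07. The other alternatives could not reverse it. Adding a constant to the linear signals keeps the sign, and a gene of 1 cluster that stays over the floors keeps its value.

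Ednrb is known to be carried by Schwann cell precursors and melanoblasts, and the markers of these cells were set beside it. In Adam19-/- cells 5 of the 6 measured glial markers were lower, beside 34.1% of all genes. Their median difference was -0.07, and their summed linear signal was 16711 and 15410. The glial factor Sox10 was at 10.45 and 10.50, and the neuregulin receptor Erbb3 at 11.19 and 11.09. Fabp7, a fatty acid binding protein of glial precursors, was at 13.45 and 13.30, a difference of -0.15, and weighs most in the glial sum. The 7 melanocyte markers split into 4 lower and 3 higher. Their median difference was -0.02 and their sums were 3430 and 3324. After quantile normalisation, median centring or lowess centring 6 of those 7 were lower and 1 was higher. Of all genes, 54.4%, 37.5% and 49.2% were then higher. The pigment enzyme Dct was at 10.38 and 10.22, while Tyrp1, which was under the floor, differed by -0.33. Kit, the receptor that melanoblasts need, differed by 0.12, and the pigment cell gene Pmel by 0.02. No marker in either list was at the lowest value of the table. The part of these cells in the Ednrb difference was not tested.

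Ece1, the main converting enzyme of big endothelin 1, had the same signal on both arrays to within 0.01. It was at 10.80 in each, or 1784 and 1781 on the linear scale, with a difference of -0.002. Under the centring and quantile alternatives the difference ran down to -0.05.

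Ece2, a related enzyme with an acidic optimum, had 2 clusters, and these stand for different transcripts. The brighter cluster, at 8.47 and 8.63, differed by 0.17. By its RefSeq accessions, however, it matched the neighbouring methyltransferase gene Eef1akmt4 and the read-through of both genes, and no transcript of Ece2 alone. The second cluster matched transcripts of Ece2 alone and the read-through. It lay under the floor at 7.62 and 7.69, a difference of 0.07, which 42.2% of the genes nearest in signal reached or passed. The clusters thus differed from each other by 0.10 in what they gave for 1 symbol. Among the 999 genes with at least 2 clusters, the median of such a gap was 0.07 and the 95th percentile 0.29.

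**Figure D2:**
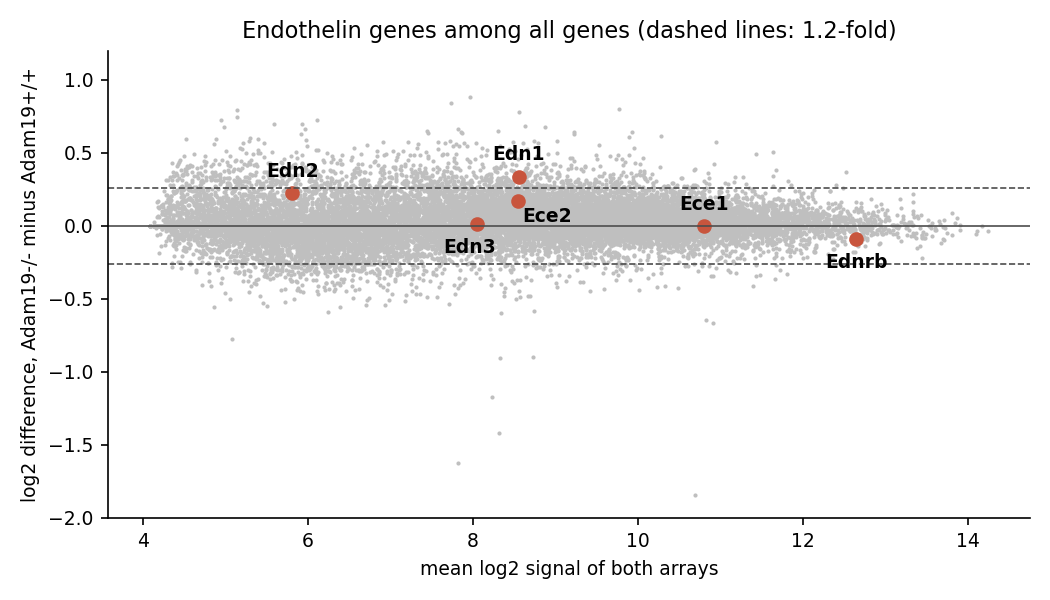
Log2 difference, Adam19-/- minus Adam19+/+, against the mean log2 signal of both arrays for all 19938 genes (grey), with the 6 endothelin genes in red and Ece2 at its brighter cluster; dashed lines mark 1.2-fold. Edn1 lies above the upper line, the other 5 lie between the lines, and the lone grey point near -1.85 is Adam19.

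Only Edn1 among the measured endothelin genes passed the lowest threshold used. No member reached 2-fold in either direction, against 0.0201% of all genes, and none reached 1.5-fold, against 0.211%. At the lower threshold of 1.2-fold, Edn1 alone was higher, where 5.07% of all genes were, and no member was lower, where 2.02% were. Among all genes past 1.2-fold, 71.5% were higher, and 44.9% after median centring, so the balance of directions rests on the scaling. The 6 members split into 4 higher and 2 lower, beside 51.7% of all genes that were higher. Above the floor 3 of 5 members were higher, beside 65.2% of genes. The median difference of the 6 was 0.09, beside 0.01 for all genes. After quantile normalisation, median centring or lowess centring 3 members were higher and 3 lower. Of all genes, 54.4%, 37.5% and 49.2% were then higher. The count past 1.2-fold includes 1 gene only and is read as the value of Edn1, not of the family.

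**Figure D3:**
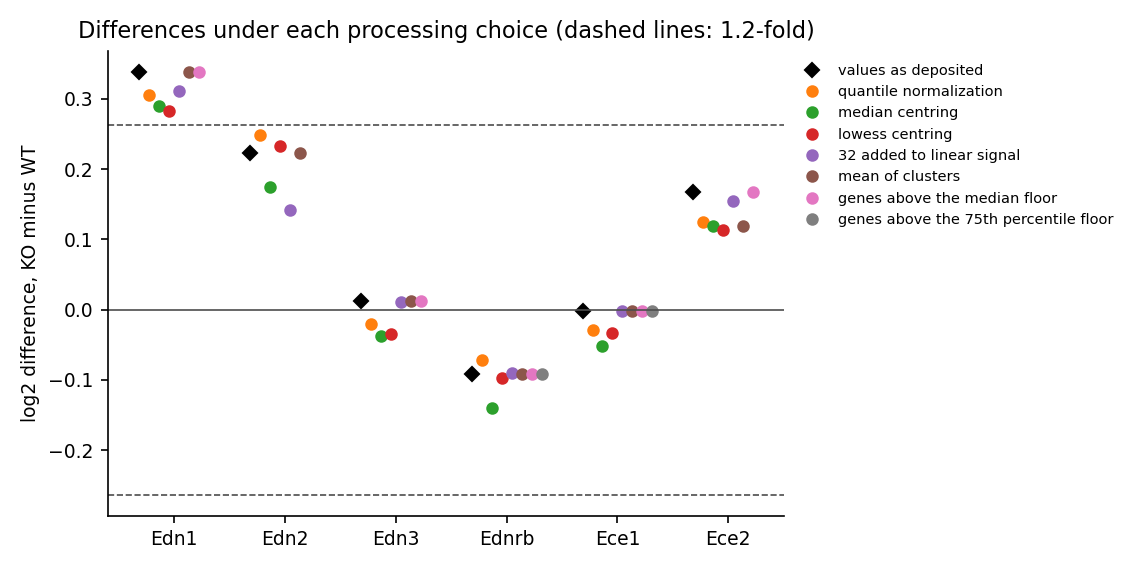
Log2 difference, Adam19-/- (KO) minus Adam19+/+ (WT), of each endothelin gene with the values as deposited (black diamonds) and under each of 7 processing alternatives (coloured circles); dashed lines mark 1.2-fold. Edn1 stays between 0.28 and 0.34 and Ednrb below 0, whereas Edn3 lies on both sides of 0; Edn2 has no point where it is under a floor.

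Markers of cells that make endothelin or that the reporter should not label were set beside Edn1. Endothelial cells are a known source of endothelin 1. Of the 7 endothelial markers 5 were higher, beside 51.7% of all genes. Of the 5 above the floor 3 were higher, beside 65.2% of all genes above it. The median difference of the 7 was 0.22, beside 0.01 for all genes. For the 5 above the floor it was 0.11, beside 0.04. The summed linear signal of the 7 was 2206 in Adam19+/+ and 2386 in Adam19-/- cells. Pecam1 was at 7.06 and 7.34, the cadherin gene Cdh5 at 7.66 and 7.92 and the receptor gene Kdr at 8.42 and 8.64. The first 2 of these were under the floor on both arrays. They alone of the endothelial list were at least 1.2-fold higher, where 5.07% of all genes were. After median or lowess centring no endothelial marker was, while 598 and 786 of 19938 genes were. In the other direction, Esam was at 8.30 and 8.16 and Emcn at 8.03 and 7.93. All 8 leukocyte markers were higher, beside 51.7% of all genes, or 7 after median or lowess centring, beside 37.5% and 49.2%. Their median was 0.38 and their sums were 1649 and 2252. Only 4 of the 8 were above the floor on at least 1 array, and all 4 were higher. The lysosomal gene Laptm5, with the largest difference of the list, was at 8.53 and 9.21. Cd68, also above the floor on both arrays, was at 8.11 and 8.16. Among the 7 cardiomyocyte markers 6 were higher, beside 51.7% of all genes, or 5 of 6 above the floor, beside 65.2%. The list had a median of 0.20 and sums of 7105 and 7671. Myl7 had its largest difference, 0.78. Actc1, at 11.70 and 11.79, differed by 0.09 and Tnnt2, at 11.12 and 11.02, by -0.10. Of the 2 cardiomyocyte markers over the 75th percentile floor, 1 was higher and 1 lower. No marker of these lists was at the lowest value of the table. Their part in the Edn1 difference was not tested.

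Genes of enzymes that process or break down endothelins, listed together with relatives of these enzymes, were close to equal. The 10 measured genes split into 4 higher and 6 lower. Their median was -0.01, and none reached 1.2-fold. Furin, which trims the precursors, was at 10.46 and 10.45. The largest differences were those of Pcsk6, a convertase of the furin family, at -0.22 and the peptidase gene Phex, under the floor on both arrays, at 0.18. Next were Pcsk7 at -0.12 and Mme, which encodes the endothelin-degrading enzyme neprilysin, at -0.08. After median or lowess centring 1 of the 10 was at least 1.2-fold lower, as were 733 and 484 of 19938 genes. Kel, whose product can convert big endothelin 3, was far under the floor at 4.86 and 4.85.

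Genes that carry the receptor signal into the cell were also close to equal. Of 18 listed, 16 were measured, 8 higher and 8 lower. Their median was 0.002, and none reached 1.2-fold. The G protein genes Gnaq, at 11.22 and 11.16, and Gna11, at 11.21 and 11.22, were well above the floor in both samples. The largest differences were those of the phospholipase genes Plcb2, under the floor on both arrays, at -0.19 and Plcb1 at -0.16. In the other direction were the calcium channel gene Itpr2 at 0.18 and the arrestin gene Arrb2 at 0.16. Rgs5, a regulator of G proteins in mural cells, was at 12.29 and 12.27.

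Transcription factor genes known to act downstream of Edn1 and Ednra in the pharyngeal arches were also measured. The 9 genes split into 6 higher, 2 lower and 1 equal, beside 51.7% of all genes that were higher. Their median was 0.17, beside 0.01 for all genes. Above the floor 5 of 6 were higher, with a median of 0.22. Of all genes above the floor 65.2% were higher, with a median of 0.04. Hand1 was at 8.91 and 9.53, a difference of 0.63 or 1.54-fold, and lies within 20 Mb of Adam19 on chromosome 11. Dlx5, a homeobox gene of the lower jaw program, was at 9.73 and 10.10, a difference of 0.36 or 1.29-fold. Barx1, a homeobox gene of arch mesenchyme, was at 9.02 and 9.29, a difference of 0.27.

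Those 3 were at least 1.2-fold higher, where 5.07% of all genes were. After quantile normalisation, median centring or lowess centring 2 of the 9 were. Of 19938 genes, 891, 598 and 786 were then at least 1.2-fold higher. The other members of the same program were nearer to equal. Gsc differed by 0.17 and Dlx6, under the floor, by 0.17. Hand2, which is central to the arch response, was at 10.78 and 10.88, a difference of 0.11. Mef2c was at 10.60 on both arrays, Dlx3 was equal at 6.66, and Gbx2, under the floor, differed by -0.16. The genes are also expressed in heart cells outside the arch program, and whether Edn1 acts on them here was not tested.

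Smooth muscle markers, from cells in the walls of the great arteries that respond to endothelin, were lower as a list. All 7 were lower, beside 34.1% of all genes, with a median of -0.12 and summed linear signals of 27793 and 25747. Acta2, smooth muscle actin, was at 13.74 and 13.62. Tagln differed by -0.15 and Lmod1 by -0.25, and neither passed 1.2-fold. After quantile normalisation, median centring or lowess centring 1 of the 7 did. Of 19938 genes, 418, 733 and 484 were then at least 1.2-fold lower. Autonomic neuron markers were higher in 4 of 6 cases, beside 51.7% of all genes and 65.2% of genes above the floor. After median or lowess centring 3 of 6 were higher, beside 37.5% and 49.2% of all genes. The list had a median of 0.09 and sums of 11233 and 12047. The catecholamine enzymes Th and Dbh, at 0.46 and 0.43, had its largest differences. Phox2a differed by 0.18 and Elavl4 by 0.004, whereas Prph differed by -0.11 and Stmn2 by -0.02.

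**Figure D4:**
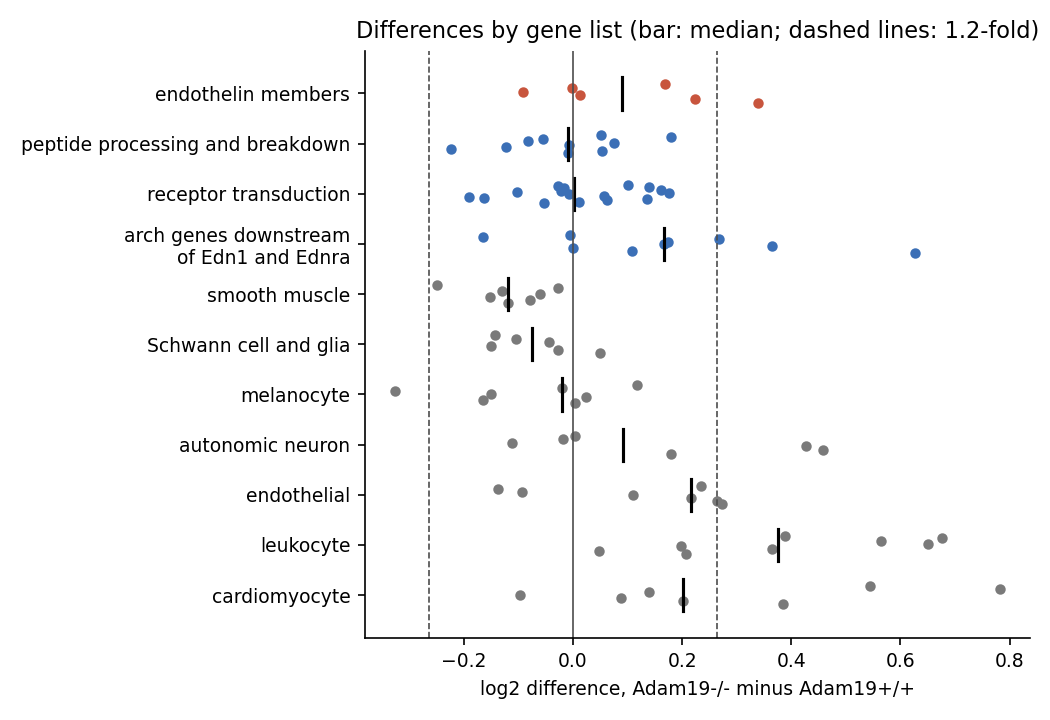
Log2 difference, Adam19-/- minus Adam19+/+, of every measured gene of each list, 1 point per gene, with the list's median as a bar and 1.2-fold as dashed lines. The endothelin genes run from -0.09 to 0.34, all leukocyte markers lie above 0 and all smooth muscle markers below it, and Hand1 is the rightmost of the arch genes at 0.63.

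Adam19 itself was at 11.62 on the Adam19+/+ and 9.77 on the Adam19-/- array, a difference of -1.85 in the direction of the labels. On the Y chromosome, Kdm5d, Uty and Eif2s3y were 2.25-fold to 3.08-fold lower on the Adam19-/- array. With 1 array each, any difference between the samples in sex or cell makeup and the genotype cannot be told apart. None of the 6 endothelin genes lies on chromosome 11, which holds Adam19. Across all genes the arrays correlated with Pearson's r = 0.998, over genes, which are not replicates. The glial marker Sox10, the neuronal marker Dbh and the smooth muscle marker Acta2 were above the floor in both samples, whereas S100b, of the glial list, was under it in both.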

How the data were processed

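The authors deposited 1 signal per transcript cluster and array, on a scale read here as log2, for 28853 clusters. The background correction, normalisation and log base behind them are not stated in the sources used here. They were taken as log2, since as natural logarithms they would reach 2.02e+06 on the linear scale, more than a 16-bit scanner records. Names came from the platform annotation of 2016, with symbols updated by Entrez identifier from a RefSeq table of GRCm38.p6. Of the clusters, 21789 had 1 symbol and were used, of which 21698 matched the table and the rest kept the older symbol, 1621 had several and 5443 had none listed. The brightest cluster stood for a gene, and no gene was filtered out.

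Differences, counts past 2-fold, 1.5-fold and 1.2-fold and medians were computed with Python 3.11.15, numpy 2.4.6, pandas 2.3.3 and statsmodels 0.14.6, and counting was tested on simulated data. The number of arrays limits the precision. The members, the gene lists, the thresholds and the alternatives were chosen with earlier results of these data known. Motifs were chosen after the values were seen. Named genes were the 7 members, Adam19, all listed arch genes, up to 4 of each other list with the largest absolute difference, and markers that define a cell type. Furin, Kel, Gnaq, Gna11, Rgs5, Stmn2, Elavl4, Actc1, Tnnt2 and the Y-linked genes were named outside that rule, after their values were seen. Many list members entered only the counts, medians and sums, and a few were not analysed here.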

Additional observations from a re-analysis of the deposited data

How the results depend on the processing

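No paired analysis was possible because each genotype has 1 array. Alternatives were quantile normalisation, median centring, lowess centring, 32 added to the linear signal, the mean of a gene's clusters, and floors at the median and 75th percentile, where dim genes give no value. The comparison of Ednra with Ednrb was not run. With no replicates, a difference or median counted as moved when it shifted by 0.07 or more, the median gap between clusters of 1 gene. A count moved when it changed by more than 1.5-fold, or to or from 0. Of 157 values, 146 did not move and none of those past 1.2-fold changed sign. Many of the 146 could not move, so their number does not measure stability. Examples are genes of 1 cluster under the mean of clusters and single genes that stay over a floor. Edn1 ran from 0.28 to 0.34, past 1.2-fold wherever it was measured. Edn2 was 0.14 with 32 added. The members' median was 0.0125 over the median floor and -0.0466 over the 75th percentile floor, where only Ednrb and Ece1 are left and the count past 1.2-fold is 0. Taking Ece2 from the cluster of its own transcripts, an alternative chosen after seeing the data, gave 0.0709 for Ece2 and 0.04 for the members' median. Over the median floor the endothelial median was 0.11, the leukocyte median 0.61 and the cardiomyocyte median 0.29. Over the 75th percentile floor the melanocyte median was -0.16, the autonomic neuron median 0.18 and the cardiomyocyte median -0.00398. The floors test fewer genes, which alone accounts for those shifts. Signal near or under the floor limits Edn2, Edn3 and Ece2.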
